A study of Triticum aestivum with 10 samples.

Results

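CAT1, a catalase gene, and Prx1, taken from its name alone to be a peroxiredoxin gene, were followed in wheat anthers. The line was BS366, a thermosensitive genic male sterile (TGMS) line. The members were every probe set that the probe-to-gene table paired with either gene by symbol or synonym, 6 of the 61290 probe sets on the Affymetrix Wheat Genome Array. CAT1 had 2 of them and Prx1 had 4, and the genes are 2 of the 771 that the table names. The genes were picked because their sterile minus fertile difference changed sign between anthers of 2.5 and 3.0 mm, so that difference is described here and not tested.

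For the sterile treatment plants raised at 20 °C were moved to 10 °C for 5 days, and for the fertile treatment they stayed at 20 °C, both under 12 h of light a day. BS366 was the only line on the arrays, so no line that stays fertile in the cold was measured with it. Each treatment gave 1 array at each of 5 anther lengths, the shortest 1.5 mm and the longest 3.0 mm, with 2.0, 2.2 and 2.5 mm in between. All 10 arrays are labelled as meiosis stage, although the authors describe mitosis as giving way to meiosis I from 2.2-mm anthers on. How many plants stand behind each array is not stated. A difference at a single length therefore rests on 2 arrays and has no replicate error, and the number of arrays limits the precision of every value below.

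By their names both genes encode enzymes that remove peroxides. Catalase, a heme enzyme of the peroxisome, splits hydrogen peroxide into water and oxygen without needing an electron donor. Peroxiredoxins reduce hydrogen peroxide and organic peroxides with a reactive cysteine, which thioredoxins or other thiol donors then restore. In plant anthers reactive oxygen species take part in the timed death of the tapetum, the cell layer that feeds the developing pollen, and cold is known to raise peroxide in many plant tissues.

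The arrays differed in ways that touch all probe sets. Their mean signals lay between 118 and 125, but the fertile 2.2-mm array had hybridization controls (spiked transcripts added before hybridization) at 750.4, against 232.9 to 355.7 on the other 9. The fertile 3.0-mm array had the lowest mean correlation with the other arrays, 0.874 against 0.910 to 0.938. The control for 18S ribosomal RNA read higher in sterile anthers throughout. It stood at 2833 in sterile and 314.9 in fertile 1.5-mm anthers, and in longer anthers at 32.3 to 134.7 in sterile and 2.22 to 9.26 in fertile ones. The part of these arrays in the values below was not tested. RAFTIN genes mark the tapetum and its product on the pollen surface. Their 4 probe sets summed to 1826 to 9189 in sterile anthers and to 5494 to 19133 in fertile anthers.

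CAT1 was read by the probe set made from the wheat sequence D86327. Its signals in sterile anthers were 48.4, 50.5, 133.9, 91.1 and 225.0, from the shortest to the longest anthers. In fertile anthers they were 248.8, 356.0, 283.3, 157.6 and 59.999. The sterile signal was lowest in the shortest anthers and highest in the longest, 4.65-fold apart, and the fertile signal was highest at 2.0 mm and lowest at 3.0 mm, 5.93-fold apart. The groups overlapped. The sterile 3.0-mm signal lay between the fertile 1.5-mm and 2.5-mm signals, and the fertile 3.0-mm signal lay between the sterile 2.0-mm and 2.5-mm signals.

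**Figure D1:**
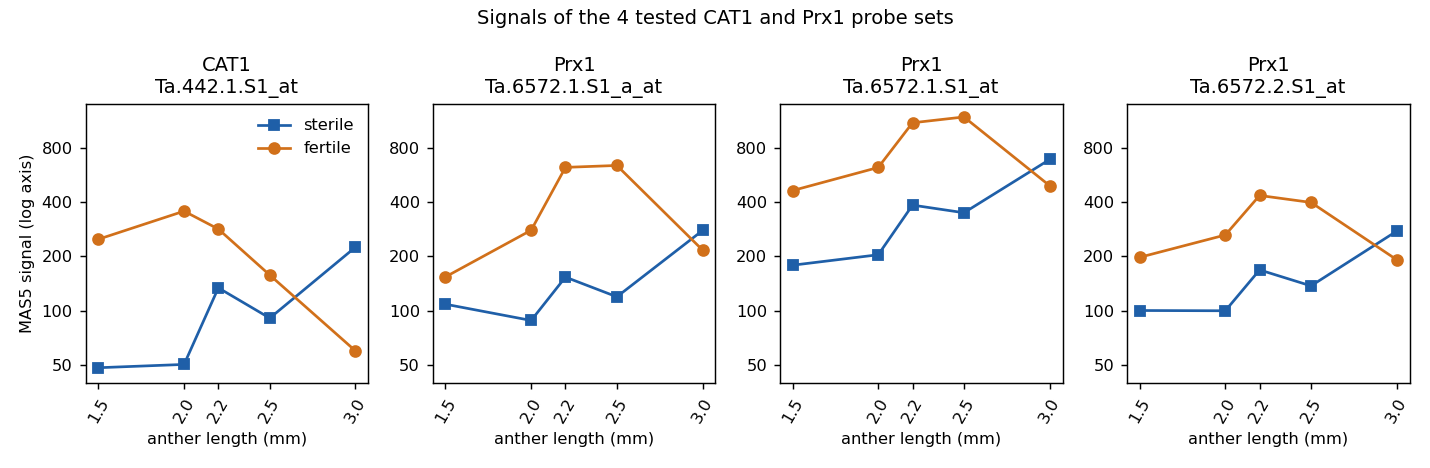
MAS5 signal (log axis) against anther length in mm for the CAT1 probe set and the 3 bright Prx1 probe sets, with sterile anthers as squares and fertile anthers as circles, 1 array per point. In each panel the sterile line lies below the fertile line up to 2.5 mm and above it at 3.0 mm, for CAT1 at 225.0 against 59.999.

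Prx1 was brightest by a probe set made from the wheat sequence CK212997. Its signals were 178.7, 204.2, 384.4, 348.7 and 687.5 in sterile anthers from 1.5 to 3.0 mm. In fertile anthers they were 462.5, 621.1, 1097, 1182 and 492.3. The sterile signals at 1.5 to 2.5 mm all lay below the lowest fertile signal, 462.5, so the groups overlapped only through the sterile 3.0-mm anthers. The fertile course had a peak at 2.5 mm with its ends close to each other, 1.06-fold apart. The sterile course was highest at 3.0 mm, 3.85-fold above 1.5 mm.

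The remaining bright Prx1 probe sets had a similar shape at lower signals. One of them also comes from CK212997, and the ending of its name (_a_at) marks probes shared by alternative transcripts of a gene. It had 108.8, 88.4, 153.6, 119.5 and 278.2 in sterile anthers and 154.0, 279.2, 621.7, 637.0 and 216.8 in fertile anthers. The other, from the sequence BQ172133, had 100.4, 100.04, 168.4, 137.4 and 276.0 in sterile anthers and 197.6, 262.7, 434.6, 397.7 and 191.7 in fertile anthers. The fertile peak of this BQ172133 probe set was at 2.2 mm, 1.09-fold above 2.5 mm, and on the fertile 2.2-mm array the hybridization controls were also raised. Over the 10 arrays the log2 signals of the 3 probe sets had a Pearson r of 0.957 to 0.990 with each other. These probe sets share a target gene and the same RNA, and bread wheat carries related copies of most genes on 3 subgenomes, which a probe set may detect together. They are no replicates of the condition.

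The remaining probe sets, 1 for each gene, were dim. The second CAT1 probe set, from the sequence CA699869, ranged over 1.49 to 18.4 in sterile and 10.9 to 16.7 in fertile anthers. The fourth Prx1 probe set, from the sequence CA633551, ranged over 1.54 to 7.42 in sterile and 1.57 to 4.99 in fertile anthers. Signals under 4.05, which is the 20th percentile of all values, were raised to 4.05 before log2 was taken, and a mean log2 signal at or above the median of all probe sets without controls was needed to be tested. Of the 6 members 4 met that limit. The sterile minus fertile log2 difference of the dim CAT1 probe set was 0.56, -1.76, -1.42, -0.10 and -0.77 from 1.5 to 3.0 mm. For the -1.42, at 2.2 mm, the sterile signal of 1.49 had been raised to 4.05. The dim probe set was thus lower in sterile anthers at 2.0 and 2.2 mm, as the bright CAT1 probe set was. It had no change of sign between 2.5 and 3.0 mm and did not repeat the whole course of the bright one. The mean log2 signal of the dim probe set was under the limit, so the CAT1 course rests on 1 probe set.

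The sterile minus fertile difference of CAT1 on the log2 scale was -2.36, -2.82, -1.08, -0.79 and 1.91, in order of length. CAT1 signals were thus 5.14-, 7.05-, 2.11- and 1.73-fold lower in sterile anthers at the first 4 lengths and 3.75-fold higher at 3.0 mm. The mean over the lengths was -1.03 with an SD of 1.85 (n = 5 lengths), an SD larger than the mean. Without the 3.0-mm pair the mean was -1.76, and without the 2.0-mm pair it was -0.58. For Prx1 the mean difference of the 3 bright probe sets was -0.95 ± 0.44, -1.55 ± 0.14, -1.63 ± 0.34, -1.90 ± 0.46 and 0.46 ± 0.09 at the same lengths (SD over 3 probe sets, which covers the disagreement between probe sets only). At 3.0 mm all 3 lay above 0, between 0.36 and 0.53.

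**Figure D2:**
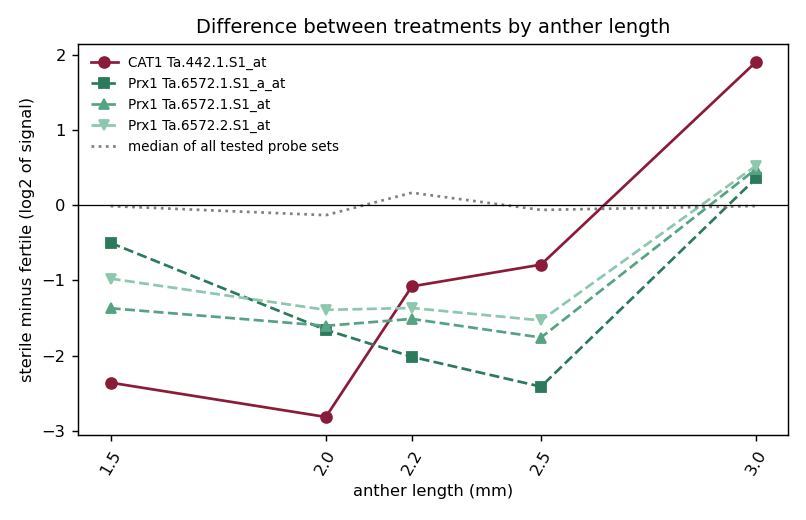
Sterile minus fertile difference (log2 of signal) against anther length in mm for the CAT1 probe set (solid line) and the 3 bright Prx1 probe sets (dashed lines), 2 arrays behind each point, with the median of all tested probe sets as a dotted line. All 4 lines cross 0 between 2.5 and 3.0 mm, and CAT1 reaches 1.91 where the Prx1 probe sets reach 0.36 to 0.53.

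The genes differed in where along the anther lengths the gap was widest. CAT1 was 1.41 further below its fertile level than the Prx1 mean at 1.5 mm and 1.27 further at 2.0 mm, on the log2 scale. At 2.2, 2.5 and 3.0 mm the CAT1 difference lay above that of Prx1 by 0.55, 1.11 and 1.45. The CAT1 gap was thus widest at 2.0 mm and that of Prx1 at 2.5 mm. From 2.0 to 2.5 mm the Prx1 gap went from -1.66 to -2.41 in the _a_at probe set. In the other bright Prx1 probe sets it moved less, from -1.60 to -1.76 and from -1.39 to -1.53. With 1 array per condition this contrast between the genes was not tested.

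Among the 30590 tested probe sets, 6.11%, 7.01%, 7.17% and 10.6% were at least 2-fold lower in sterile anthers at the 4 shorter lengths, and 11.2% were at least 2-fold higher at 3.0 mm. Of the 4 tested members 2, 4, 4 and 3 were that much lower at the first 4 lengths and 1, CAT1, was that much higher at 3.0 mm. The median difference over all tested probe sets stayed between -0.13 and 0.17 at every length. A negative difference at the 4 shorter lengths with a positive one at 3.0 mm, of any size, was seen in 1758 tested probe sets (5.75%). These shares are given as a background, since the members were chosen by these differences.

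The change of sign came from both treatments in nearly equal parts. Between 2.5 and 3.0 mm the CAT1 difference moved by 2.70 on the log2 scale, of which 48.4% lay in the sterile and 51.6% in the fertile anthers. The CAT1 signal was 2.47-fold higher at 3.0 mm than at 2.5 mm in sterile anthers and 2.63-fold lower in fertile anthers. For the Prx1 probe sets the 3.0-mm signal was 1.97- to 2.33-fold higher than the 2.5-mm signal in sterile anthers and 2.08- to 2.94-fold lower in fertile anthers, and the fertile anthers held 51.1% to 56.3% of the change. Over all tested probe sets, 4.46% were at least 2-fold higher at 3.0 than at 2.5 mm in the sterile series, against 3 of the 4 members. In the fertile series 11.8% were at least 2-fold lower, against 4 of the 4 members. An opposite move of this direction and of any size, sterile higher and fertile lower, was seen in 26.3% of the tested probe sets. The members were chosen by this change of sign, so these shares serve only as a background. All tested members but CAT1 are probe sets of the same gene, Prx1. The fertile part of each of these values rests on the fertile 3.0-mm array, the one least like the others.

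**Figure D3:**
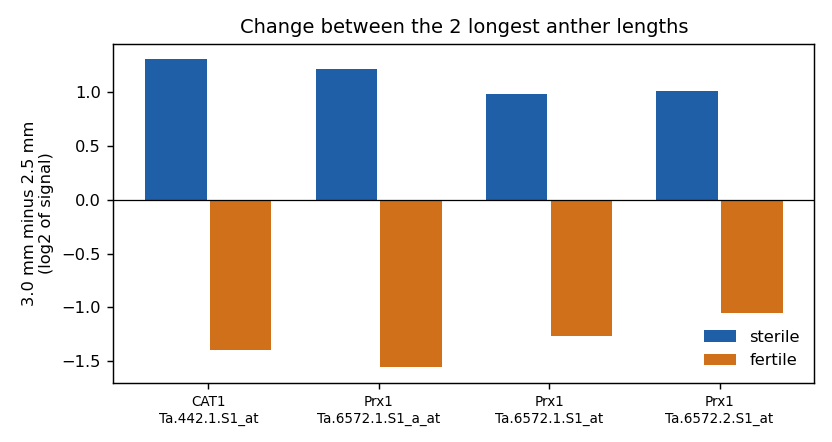
Change in log2 signal between 2.5- and 3.0-mm anthers for the CAT1 probe set and the 3 bright Prx1 probe sets, with a bar for sterile and a bar for fertile anthers, each from 2 arrays. Sterile bars lie between 0.98 and 1.30 and fertile bars between -1.05 and -1.55.

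The step between 2.0 and 2.2 mm separated the genes in fertile anthers. In sterile anthers CAT1 was 2.65-fold and Prx1 1.68- to 1.88-fold higher at 2.2 mm than at 2.0 mm. In fertile anthers CAT1 was 1.26-fold lower at 2.2 mm, and Prx1 was 1.65- to 2.23-fold higher. A step of at least 2-fold upward was seen in 3.56% of the tested probe sets in the sterile series and in 4.39% in the fertile series. Between 2.2 and 2.5 mm both genes were lower in sterile anthers, by 1.47-fold for CAT1 and by 1.10- to 1.29-fold for Prx1. In fertile anthers CAT1 was 1.80-fold lower over that step and the Prx1 signals moved by at most 1.09-fold. Fewer cells of a type and less RNA per cell cannot be told apart in whole anthers.

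Ordered by level, the 10 conditions fell differently for the genes. The 3 highest CAT1 signals were those of fertile anthers at 2.0, 2.2 and 1.5 mm, 1.26- and 1.14-fold apart, followed by sterile anthers at 3.0 mm. The 2 lowest were those of sterile anthers at 2.0 and 1.5 mm, 1.04-fold apart. The 2 highest signals of the brightest Prx1 probe set were those of fertile anthers at 2.5 and 2.2 mm, 1.08-fold apart, followed 1.60-fold lower by sterile anthers at 3.0 mm. For this Prx1 probe set sterile 3.0-mm and fertile 2.0-mm anthers were 1.11-fold apart (687.5 and 621.1). For CAT1 sterile 3.0-mm and fertile 1.5-mm anthers were 1.11-fold apart (225.0 and 248.8). With no replicates, none of these neighbours can be said to differ. Anthers of equal length need not be equally far in development, and the design cannot tell level from stage apart.

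The slope over anther length, shared by both treatments, was tested with limma on all 10 arrays with treatment as a factor. Its estimate does not use the sterile minus fertile difference, but its standard error does. A difference that changes with length, as the members were chosen to have, widens the standard error, and opposite courses cancel in the slope. Whether a member passes is therefore not independent of how the genes were chosen. In all, 0.481% of the tested probe sets had a higher signal in longer anthers and 0.255% a lower one at an adjusted p under 0.05 (147 and 78 of 30590), and none of the 4 tested members passed. CAT1 had a slope of -0.01 log2 units per mm with a standard error of 0.55 (adjusted p = 0.999 from limma), with its highest sterile and its lowest fertile signal both at 3.0 mm. The brightest Prx1 probe set had 0.76 with a standard error of 0.33 (adjusted p = 0.26 from limma), and the other bright Prx1 probe sets had 0.69 and 0.51 with standard errors of 0.39 and 0.30 (adjusted p = 0.40 and 0.42 from limma). The fit had 7 residual degrees of freedom. Leaving out any 1 pair of arrays left 0 to 15 passing probe sets in place of 225, the 15 without the 2.2-mm pair. At an unadjusted p under 0.05 there were 5246 (17.1%) with all arrays, among them 1 of the 4 members, the brightest Prx1 probe set.

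A list of antioxidant and redox enzymes, drawn up by symbol and synonym, held 12 probe sets of 5 genes, of which 8 passed the limit on dim probe sets. Beside CAT1 and Prx1 these were Trx-M, GSTZ1 and PER1, and 0 of the 8 passed the test of the slope, higher or lower. The median slope of the 4 tested probe sets outside CAT1 and Prx1 was 0.81, against -0.03 over all tested probe sets. The same rule found 0 probe sets for enzymes of the peroxisome and of photorespiration. In those 4 the median sterile minus fertile difference was 0.03, -0.05, -0.56, -0.79 and -0.88 from 1.5 to 3.0 mm, so their median had no change of sign after 2.5 mm. Both tested GSTZ1 probe sets are among the 4, with -1.63 and -1.65 at 3.0 mm. Of the 4, 1 (Trx-M) was lower in sterile anthers at 1.5 to 2.5 mm and higher at 3.0 mm, there by 0.04.

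Trx-M, an m-type thioredoxin of the chloroplast that can pass electrons to peroxiredoxins there (known from Arabidopsis), had its highest fertile signal at 2.5 mm and its highest sterile signal at 3.0 mm, as the brightest Prx1 probe set had. Its signals were 151.1, 135.0, 233.2, 190.6 and 444.5 in sterile anthers and 192.5, 235.4, 558.0, 752.6 and 433.6 in fertile anthers from 1.5 to 3.0 mm. The sterile signal was lower at the first 4 lengths, most of all at 2.5 mm (-1.98 on the log2 scale), and higher by 0.04 at 3.0 mm. Its slope was 1.02 with a standard error of 0.29 (adjusted p = 0.12 from limma). GSTZ1, a zeta-class glutathione transferase, had a different course by its probe set from CA649877. Its sterile signals were 48.0, 39.96, 52.3, 36.1 and 61.3, and its fertile signals were 30.4, 41.5, 67.3, 60.3 and 192.1. By this probe set GSTZ1 was thus lowest relative to fertile anthers at 3.0 mm (-1.65), where CAT1 and Prx1 were above them. Its second tested probe set, from AF002211, also had its largest gap there (-1.63). A dim GSTZ1 probe set from the same sequence AF002211 was under the limit for the test. It went the other way, with -1.94 at 2.5 mm and 0.41 at 3.0 mm. PER1, which the gene table also lists as peroxidase, ran between 48.9 and 68.8 in sterile and between 52.1 and 87.4 in fertile anthers by its probe set from CA653248. Its other probe set was too dim to be tested and had 4.63 in sterile and 29.6 in fertile anthers at 3.0 mm (-2.68).

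**Figure D4:**
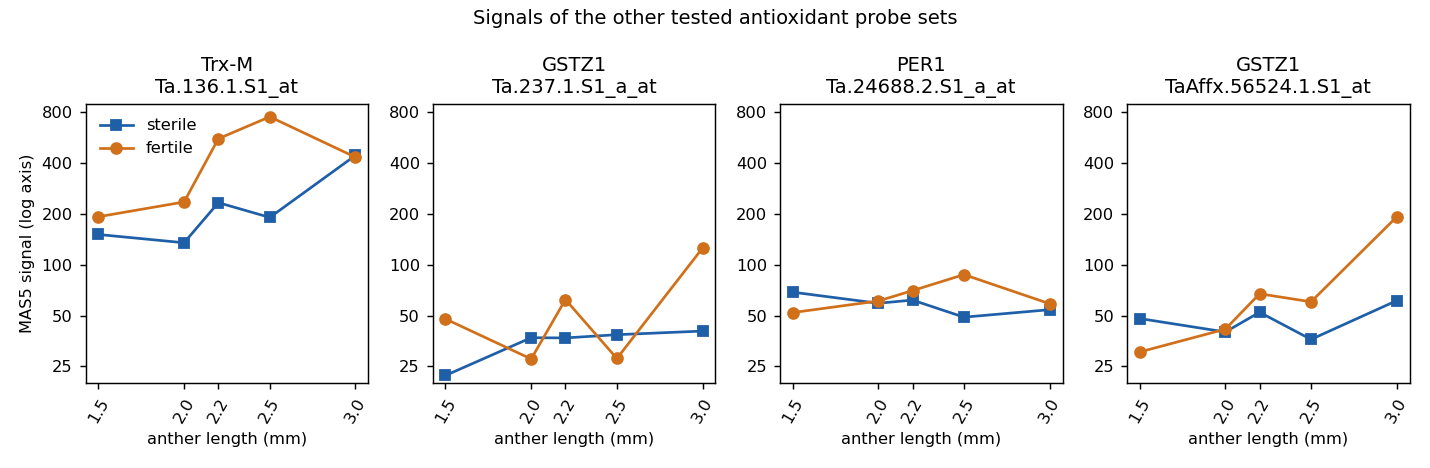
MAS5 signal (log axis) against anther length in mm for the tested probe sets of Trx-M, GSTZ1 and PER1, with sterile anthers as squares and fertile anthers as circles, 1 array per point. Trx-M meets its fertile level at 3.0 mm (444.5 against 433.6), and both GSTZ1 probe sets lie furthest below it there (40.5 against 125.5 and 61.3 against 192.1).

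Signals of 74 other named genes (117 tested probe sets) were ranked by the Pearson r of their log2 signals with CAT1 and with the brightest Prx1 probe set over the 10 arrays. These correlations share the arrays and the treatment difference, so r is also given with each treatment's mean removed. Those most like CAT1 were a gene named rbcl (r = 0.804, and 0.732 with treatment means removed), GA20ox1b (0.766 and 0.684), WZF1 (0.748 and 0.679), cys1 (0.746 and 0.736) and AGP-S (0.731 and 0.810). GA20ox1b is a gibberellin oxidase, and AGP-S is the small subunit of the enzyme that makes ADP-glucose for starch. AGP-S had 834.8 in sterile and 497.3 in fertile anthers at 3.0 mm, the lowest of its 5 fertile signals. The rbcl probe set here was dim, at 12.6 to 40.3 in sterile and 26.1 to 39.5 in fertile anthers.

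Those most like Prx1 were another rbcl probe set (r = 0.909, and 0.850 with treatment means removed), 1-FEH (0.909 and 0.827), Trx-M (0.902 and 0.865), raftin1a (0.899 and 0.808) and raftin1b (0.883 and 0.776). This rbcl probe set had 50.5, 51.2, 59.9, 66.4 and 104.4 in sterile and 53.9, 139.7, 239.4, 228.7 and 84.1 in fertile anthers, and like Prx1 it was higher in sterile anthers at 3.0 mm. The raftin genes differed from Prx1 at that length. The brighter raftin1a probe set had 2750 in sterile and 5666 in fertile anthers at 3.0 mm, and the 4 raftin probe sets had a median difference of -1.06 there. Over the last step the sum of the 4 tapetum probe sets was higher at 3.0 mm in both treatments, at 9189 against 3482 in sterile and 19133 against 14318 in fertile anthers. Green-cell genes had 34 probe sets (of PRK, PsbO, PsbP, petC and rbcl), and 13 of these passed the limit on dim probe sets. The 34 summed to 15476 at 2.5 mm and 17636 at 3.0 mm in sterile anthers, and to 19980 and 23467 in fertile anthers. The 2 brightest green-cell probe sets, both of rbcl, made up 11957 and 11418 of these sums in sterile anthers and 11124 and 13132 in fertile anthers. Of the 13 tested green-cell probe sets, 3 in sterile and 4 in fertile anthers had a lower signal at 3.0 mm than at 2.5 mm, and of the 4 tapetum probe sets 0 in either treatment had.

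Among the named genes the course most opposed to CAT1 was that of APRT, an adenine phosphoribosyltransferase that recycles adenine (r = -0.889, and -0.850 with treatment means removed). It was also among the most opposed to Prx1 (-0.857 and -0.758). APRT signals were 2137, 1861, 1656, 1820 and 1648 in sterile and 1616, 1431, 1322, 1504 and 1861 in fertile anthers, higher in the sterile at the first 4 lengths and lower at 3.0 mm. TaTPC1, named for a vacuolar calcium channel, had r = -0.658 with CAT1, and PRO1, a profilin, had -0.640, which was -0.30 after quantile normalization. The beta-tubulins tubb1 and tubb3 had r = -0.858 and -0.781 with Prx1. Over all tested probe sets, 44 had an r above 0.9 and 7 an r below -0.9 with CAT1, and 270 and 184 with Prx1 (its own probe sets left out).

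**Figure D5:**
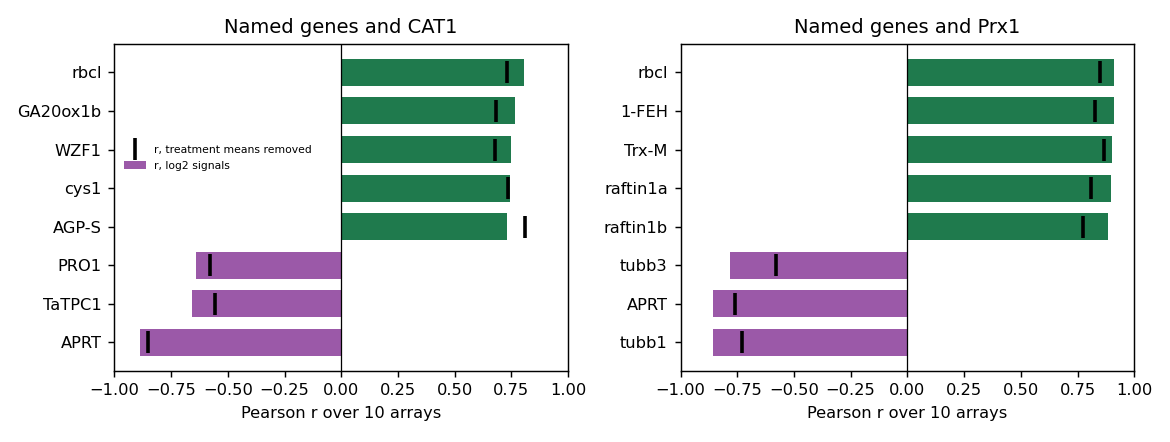
Pearson r of log2 signals over 10 arrays between named genes and CAT1 (left) or the brightest Prx1 probe set (right), for the 5 most alike and the 3 most opposed genes, with a tick for r after each treatment's mean was removed. APRT stands among the most opposed in both panels, at -0.889 and -0.857, and Trx-M lies at 0.902 with Prx1.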

How the data were processed

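Total RNA of BS366 anthers was hybridized to Affymetrix Wheat Genome Arrays, 1 array per treatment and anther length. The authors deposited intensities, MAS5 signals per probe set on a linear scale (0.0167 to 8641), which were used as given. Which MAS5 version they ran is not stated. Precision is limited by the number of arrays.

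From 61290 probe sets 111 controls were left out. Low signals were raised to 4.05, the 20th percentile, before log2 was taken. Probe sets whose mean log2 signal reached the median of all (4.33) entered the test, 30590 in number. In R 4.3.3, limma 3.58.1 fitted treatment as a factor and anther length in mm as a number (lmFit, then eBayes with trend = TRUE), with p adjusted by Benjamini-Hochberg over all tested probe sets and a threshold of 0.05. The procedure was tested on simulated data. The lengths of a series stand in for replicates, so p-values measure the spread of these arrays around a straight line for each treatment, with the same slope in both. A difference in slope between the treatments counts as spread.

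The array's annotation names a gene for 1273 probe sets (771 genes). By gene ID, 770 of these matched the RefSeq table of the assembly IWGSC CS RefSeq v2.1. Its symbols and synonyms named the members: CAT1 by symbol, Prx1 by synonym. Coordinates of that assembly are not given, since the array names no build. Genes most like a member are the 5 named genes with the highest and the 3 with the lowest Pearson r, by 1 probe set each. The members, lists and tests were chosen with earlier results of these data known.

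Alternative settings were ranks of anther length in place of mm, each length left out, arrays scaled by quantiles or by medians, the floor dropped or raised to the 40th percentile (14.1), the filter dropped or tightened to 20393 probe sets, and eBayes with trend = FALSE.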

Additional observations from a re-analysis of the deposited data

Results flagged for a closer look

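A value far from the rest was looked for in 16 groups of 5 values and found in 3, where about 1 group in 20 is flagged by chance. The sterile minus fertile log2 difference at 3.0 mm stood apart from those at the other 4 lengths in 2 Prx1 probe sets, at 0.48 for the brightest one (its gap to the next value is 0.827 of the range) and at 0.53 for the one from BQ172133 (0.730). These differences are the ones by which Prx1 was chosen. They rest on both 3.0-mm arrays, of which the fertile one had the lowest mean correlation with the others. The CAT1 differences held no such value by this rule, although the 3.0-mm one alone was above 0 and lay 2.70 above that at 2.5 mm. At the other 4 lengths they ran from -2.82 to -0.79, a wider spread than in the 2 Prx1 probe sets.

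On the fertile 2.2-mm array the hybridization controls were at 750.4, with a gap of 0.770 of the fertile range on the log2 scale. Without the 2.2- and 3.0-mm pairs, a choice made after seeing the data, the mean sterile minus fertile difference was -1.99 for CAT1 and -1.30 to -1.58 for the bright Prx1 probe sets.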

How the results depend on the processing

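The differences of the 4 tested members at each length kept their sign under quantile normalization, median centring, no floor and a floor at the 40th percentile, at 3.0 mm with 1.91 to 2.05 for CAT1 and 0.36 to 0.67 for Prx1. Dropping or raising the floor could not move these differences, since all signals of these members lay above both floors. With 1 length left out the mean difference was -1.76 to -0.58 for CAT1 and -1.65 to -0.80 for Prx1. The CAT1 slope changed its sign with ranks of length (0.00025 per rank) and without any 1 pair but the shortest. With a pair left out it was -0.44 to 0.31 log2 per mm, -0.44 without the 1.5-mm and 0.31 without the 3.0-mm pair, so it has no settled direction. For Prx1 the slopes stayed above 0, at 0.29 to 1.29 with a pair left out, and the adjusted p from limma was 0.21 to 0.87 over all alternatives, against 0.88 to 1 for CAT1. The 225 probe sets with a slope became 29 with eBayes without a trend, 404 with ranks of length, 0 with dim probe sets kept in and 0 to 15 with a length left out, where 7214 and 2912 to 5334 had an unadjusted limma p under 0.05. The cause was not tested. Of the 225 probe sets 65.3% had a higher signal in longer anthers, against 51.8% of 247 after quantile normalization. At 1.5 mm 895 probe sets were at least 2-fold higher in sterile anthers, and 1465 after median centring. No paired analysis was possible because the slope, which is what was tested, is taken up by a block for each length, and the labels give no replicate numbers. The sterile minus fertile differences are already taken between arrays of equal length. Without replicates no difference at a single length has an error.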
